A study of Mus musculus with 4 samples.

Results

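The genes described here are 10 genes of the Wnt pathway in mouse liver, namely Lgr4, Lrp5, Lrp6, Rnf43, Znrf3, Apc, Axin1, Axin2, Ctnnb1 and Tcf7l2. They were taken by name, and every peak that the deposited lists assign to one of these symbols was taken. Together they held 43 peaks of N6-methyladenosine (m6A), 22 of the 14693 peaks in the list from livers labelled Alkbh5-HKO and 21 of the 14057 peaks in the list from livers labelled Alkbh5flox/flox. Peaks were listed for 9 of the 10 genes, on each of these 9 in both lists, and Rnf43 had none in either. The 10 genes encode components of the pathway, and enzymes that are zoned across the liver lobule are not among them.

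In m6A RNA immunoprecipitation sequencing, fragmented RNA is pulled down with an antibody against the modified base (IP) and sequenced beside RNA that was not pulled down (input). A peak is a stretch of exon where IP reads are enriched over input reads. The enzyme ALKBH5 takes the m6A methyl group off RNA. The Alkbh5-HKO group (here HKO) is read as an Alkbh5 knockout, although the labels do not spell out the abbreviation, name a Cre driver or say which cells carried the deletion. The Alkbh5flox/flox group (here FF) carries floxed Alkbh5 alleles. Both groups were 9 weeks old and on normal chow, and RNA of 3 mice was pooled in each, giving 1 IP library, 1 input library and 1 peak list per genotype. A single pool stands for each genotype, so differences between the lists have no replicate behind them and are given without a p-value. The question put by the study was what ALKBH5 does to the m6A pattern of liver mRNA.

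Alkbh5 itself had 0 peaks in the HKO list and 3 in the FF list. Hepatocyte markers had a peak in at least 1 list in 6 of 6 cases, endothelial and stellate cell markers in 3 of 4 each, Kupffer cell markers in 2 of 4 and cholangiocyte markers in 1 of 4. Adgre1, Vsig4, Stab2, Reln, Krt19, Krt7 and Epcam had no peak. Of the 15 markers with a peak 12 had one in both lists, while Ttr and Col1a1 were in the HKO list alone and Alb in the FF list alone. A peak in at least 1 list was present on 40.8% of protein-coding genes. Peak lists hold neither read totals nor RNA levels, so depth is unknown, and a gene with few reads may have no peak whatever its methylation. In whole liver, fewer cells of a type and less RNA per cell cannot be told apart.

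Wnt ligands bind Frizzled receptors together with the co-receptors LRP5 and LRP6, and this stops a destruction complex built on APC and AXIN from marking β-catenin, the product of Ctnnb1, for degradation. β-catenin then acts in the nucleus with TCF factors such as TCF7L2. The membrane ubiquitin ligases RNF43 and ZNRF3 remove Frizzled from the cell surface, and R-spondins, through receptors such as LGR4, block these ligases. In the liver the pathway is most active around the central vein, where it sustains genes of the pericentral zone, and endothelial cells there supply ligands.

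Start peaks of Lgr4 and Ctnnb1 are shown first, because their folds were listed far apart in HKO and FF and because part of each can be read from RefSeq (GRCm38.p6, plus strand in both cases). RefSeq windows around a gene start were at hand for 5 of the 10 genes, in 8 windows, and part of a peak fell in a window for Lgr4 and Ctnnb1. The Lgr4 sequence below is the first 30 bases of the FF peak, chr2:109917647-109917676, with the letters GGAC in capitals. The Ctnnb1 sequence is the first 30 bases of the peak that both lists give with the same limits, chr9:120933490-120933519.
Lgr4: agaagggaaaaGGACgcgcggagcgggagc
Ctnnb1: gccctcgctcggtggcggccgcgtcagctc

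GGAC is a common core of the sequence in which m6A is found. Its match in Lgr4 lay at bases 12 to 15, counted from 1 at the annotated gene start, inside the FF peak and before the first base of the HKO peak, 109917677. Only 20 of the 270 bp of the HKO peak and 50 of the 480 bp of the FF peak lie in a window. Whether the remaining bases of either Lgr4 peak hold GGAC was not analysed. Of 32851 RefSeq windows, 18.9% hold GGAC in the RNA sense within the 50 bases after the start and 17.4% hold it as GTCC, its reverse complement. Of the Ctnnb1 peak, 138 bases lie in a window. They hold 0 matches in the RNA sense and 1 match of GTCC, while 40.6% of windows hold GGAC and 39.9% hold GTCC in their last 138 bases. The Ctnnb1 window is set on a start at 120933578, while the gene span begins at 120933400. The 30 bases shown lie between these places. In every window the last 138 bases include bases before its start, so 40.6% and 39.9% are shares in DNA around starts and not in RNA alone. A match is a description of the letters and shows no modified site. GGAC does not overlap its own reverse complement.

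**Figure D1:**
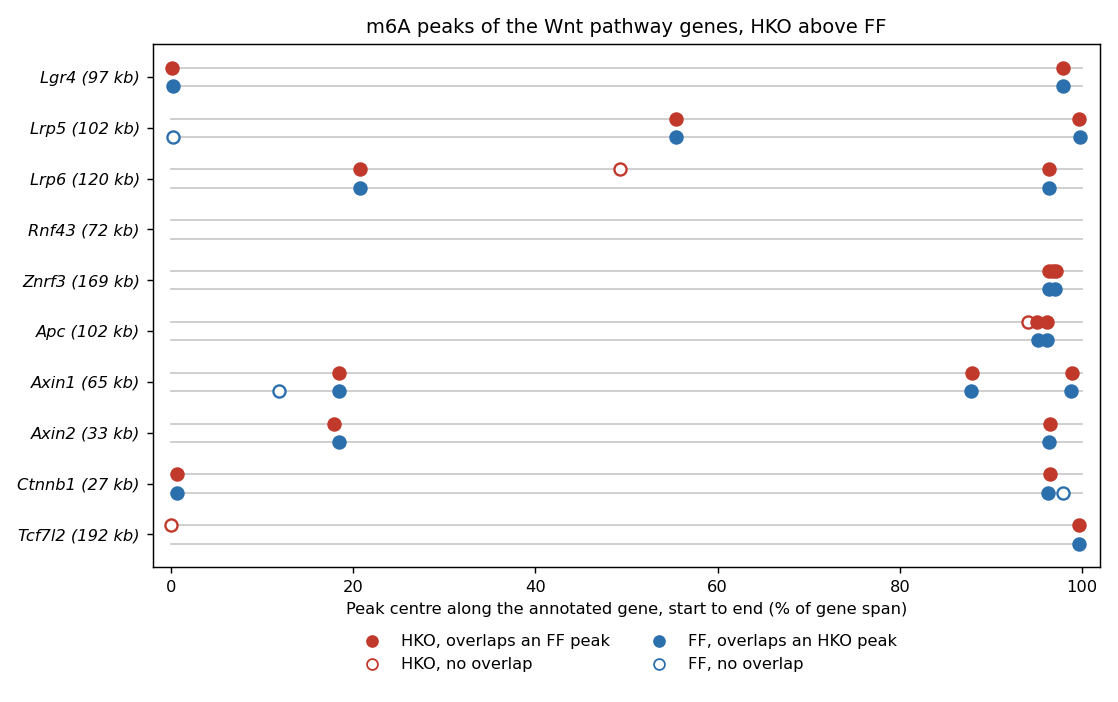
Centres of the m6A peaks along each gene, from annotated start (0%) to annotated end (100% of the gene span, in kb beside the symbol), with HKO above FF for each gene. Filled circles overlap a peak of the other list and open circles do not; of 43 peaks, 6 are open, 3 in each list, and most filled circles stand in pairs near the 3′ end of the gene.

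The peaks of the Wnt genes were mostly shared. Of 22 HKO peaks, 19 overlapped an FF peak by at least 1 bp of exon on the same strand, where 71.5% of all HKO peaks did so. Of 21 FF peaks, 18 overlapped an HKO peak, against 74.8% of all FF peaks. Peaks in both lists were found on 9 of the 9 genes with a peak, while 75.6% of the 9650 genes with a peak in either list had one in both. A peak in either list was present on 9 of the 10 genes, beside 40.8% of the annotated protein-coding genes. With so few genes and a single pool, these shares are descriptions.

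Most of the genes carried several peaks. Of the 9, all had 2 or more in the HKO list and 8 in the FF list (all but Tcf7l2), where 44.1% of genes in each list had 2 or more. The number of peaks was higher in the HKO list for Lrp6, Znrf3, Apc and Tcf7l2, lower for Lrp5, Axin1 and Ctnnb1, and equal for Lgr4 and Axin2. The median exonic length was 300.0 bp in both lists, beside 269 bp for all HKO peaks and 241 bp for all FF peaks. At a log10 q of -5 or less, 17 of the 22 HKO peaks and 15 of the 21 FF peaks remained, beside 65.5% of all HKO and 62.3% of all FF peaks. The q and the fold enrichment of IP over input are the authors' values for each peak.

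Most of the peaks lay towards the 3′ end of the gene span. A centre within the last 10% of the gene span was found for 13 of 22 HKO peaks and 12 of 21 FF peaks, where 49.2% of all HKO and 42.9% of all FF peaks were so placed. Within 1000 bp of the annotated end lay 4 HKO and 4 FF peaks, beside 31.0% of all HKO peaks and 26.6% of all FF peaks, and with a limit of 500 bp 1 HKO and 1 FF peak remained. The Ctnnb1 pair straddled the limit of 1000 bp, with the HKO centre at 943 bp and the FF centre at 1003 bp. Within 500 bp of the annotated start lay 3 HKO and 3 FF peaks, beside 7.38% of all HKO peaks and 15.0% of all FF peaks. At a log10 q of -5 or less in both lists, 1 of the 3 HKO start peaks remained, that of Ctnnb1. The tables at hand give gene spans, so the place of a peak in coding or untranslated sequence was not analysed here. Distances are counted along the genome with introns included.

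**Figure D2:**
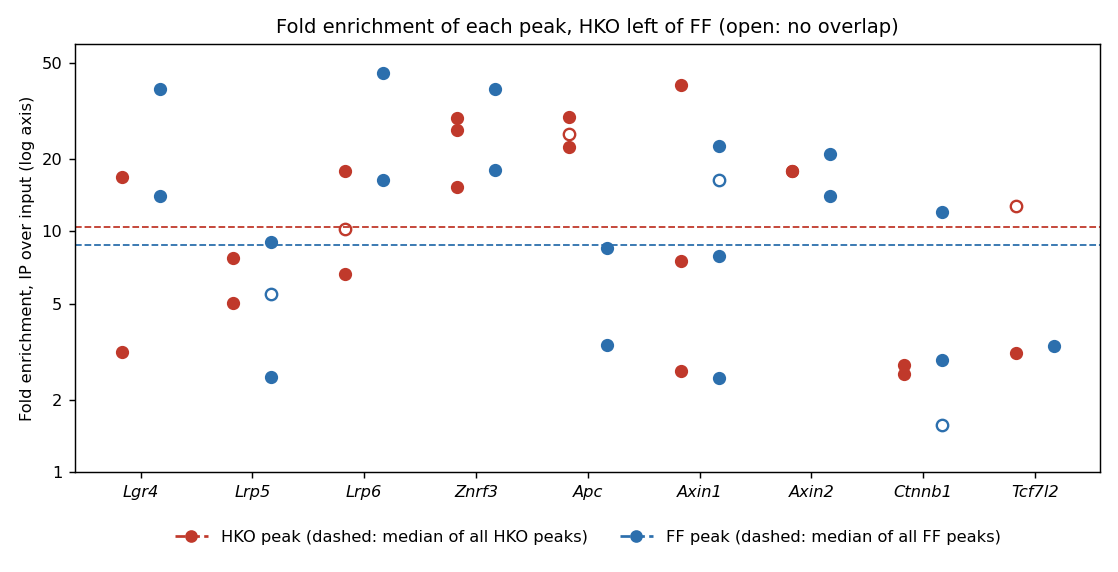
Fold enrichment of IP over input for each peak (log axis) by gene, HKO left of FF, with open circles for peaks that overlap none of the other list and dashed lines at the list medians (10.4 for HKO, 8.80 for FF). Ctnnb1 and Tcf7l2 hold low folds in both lists near the gene end, and the Apc peaks lie at 22.5 to 30.0 in HKO and at 3.37 and 8.53 in FF.

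Fold values spread widely between the genes. They ran from 2.56 to 40.7 in the HKO list (median 14.0) and from 1.57 to 45.4 in the FF list (median 12.0), while the medians of all peaks were 10.4 in HKO and 8.80 in FF. Many folds are repeated within a list. The HKO value of 17.8, for example, stands on 172 peaks of that list, among them both Axin2 peaks and a Lrp6 peak, and 12.7 stands on 305, among them a Tcf7l2 peak. The FF value of 16.4 stands on 175 peaks of its list, among them a Lrp6 and an Axin1 peak. That of 39.2 stands on 11, among them the Lgr4 start peak and a Znrf3 peak. Folds of the lists come from separate IP reactions, and for overlapping peaks the rank of each fold within its own list, as a percentile, is therefore given as well. Such ranks describe the lists and show no change.

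Among the receptors, Lgr4 (gene ID 107515, chr2:109917647-110014257, plus strand), which encodes a receptor for R-spondins, had 2 peaks in each list and every one overlapped its counterpart. The start peak of Lgr4 lay at chr2:109917677-109917946 in HKO, with fold 3.17 (log10 q -4.49), and at chr2:109917647-109918126 in FF, with fold 39.2 (log10 q -12.1). The HKO peak thus sat wholly inside a longer FF peak, 270 bp within 480 bp. Its fold stood at percentile 11.4 of the HKO list and that of the FF peak at percentile 96.8 of the FF list, the widest gap in rank among the 19 overlapping pairs of these genes. The distal Lgr4 peak was among the longest in either list, with 1018 bp in HKO and 1108 bp in FF, and was centred 2036 bp (HKO) and 2021 bp (FF) from the annotated end, at chr2:110011713-110012730 in HKO and chr2:110011683-110012790 in FF. Peaks as long or longer made up 2.08% of the HKO list and 1.32% of the FF list. Its folds were 16.8 in HKO and 14.0 in FF and its log10 q values -95.7 in HKO and -75.5 in FF, the smallest q of the 10 genes in each list. The percentiles of these folds, 72.4 in HKO and 71.6 in FF, lay close together.

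The other places near a gene start behaved differently from gene to gene. Ctnnb1 (gene ID 12387, chr9:120933400-120960507, plus strand), the gene of β-catenin, had a peak of 2 exon blocks, 149 bp and 61 bp, at chr9:120933490-120950233 with the same limits in both lists. Its fold was 2.79 in HKO (log10 q -15.5, percentile 8.40) and 12.0 in FF (log10 q -44.0, percentile 65.0). Tcf7l2 had a start peak only in the HKO list and Lrp5 only in the FF list. As a comparison, the 887 shared HKO peaks near a gene start in the whole list had a median percentile of 26.9, and the 882 shared FF peaks one of 54.0. The lower rank in HKO of the Lgr4 and Ctnnb1 start peaks goes the same way as the medians of all shared start peaks.

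Near its 3′ end Ctnnb1 carried a shared peak, at chr9:120959370-120959759 in HKO (log10 q -44.6, fold 2.56, percentile 6.54) and at chr9:120959340-120959669 in FF (log10 q -51.7, fold 2.94, percentile 11.8). The FF list alone held another Ctnnb1 peak, at chr9:120959878-120959998 (log10 q -9.36, fold 1.57). A gap of 118 bp separated it from the HKO peak, and its fold stood at percentile 0.911 of the FF list. Near the gene end Ctnnb1 thus combined low folds with small q values in both lists, unlike the FF start peak, whose fold lay above that list's median.

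Lrp5 and Lrp6 encode the co-receptors that bind Wnt beside Frizzled. Lrp5 (gene ID 16973, chr19:3584825-3686585, minus strand) had 2 HKO and 3 FF peaks. A shared Lrp5 peak in the middle of the gene lay at chr19:3628444-3630431 in HKO (log10 q -29.2, fold 7.79, percentile 39.4), where a block of 1 bp extended it into a neighbouring exon, and at chr19:3630103-3630402 in FF (log10 q -22.5, fold 9.01, percentile 50.8). The shared Lrp5 peak at the gene end lay at chr19:3585034-3586423 in HKO (log10 q -9.25, fold 5.03, percentile 25.0) in 2 exon blocks, and at chr19:3584974-3585183 in FF (log10 q -6.46, fold 2.50, percentile 7.97). The HKO centre was 358 bp and the FF centre 253 bp from the annotated end. The Lrp5 peak of the FF list alone, at chr19:3659632-3686436, joined blocks of 9 bp and 82 bp, was centred 194 bp from the gene start, with fold 5.48 at a log10 q of -2.98.

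Lrp6 (gene ID 16974, chr6:134446476-134566913, minus strand) had 3 HKO and 2 FF peaks. Its upstream shared peak lay at chr6:134541717-134542017 in HKO, with fold 17.8 (log10 q -15.0, percentile 74.9). In FF it lay at chr6:134541688-134566674 as blocks of 358 bp and 32 bp, with fold 45.4 (log10 q -15.4, percentile 97.6), the highest fold of these genes in that list. The 32 bp block reaches an exon closer to the gene start that the HKO peak does not include. The Lrp6 peak before the gene end was 270 bp long in HKO (chr6:134450696-134450965, fold 6.67, log10 q -7.27, percentile 34.2) and 540 bp long in FF (chr6:134450486-134451025, fold 16.4, log10 q -8.93, percentile 79.0), the first lying inside the second. A further Lrp6 peak stood in the HKO list alone, at chr6:134507378-134507647 (log10 q -2.29, fold 10.2), 34040 bp from the nearest FF peak of the gene. Of all HKO peaks, 93.5% had a q as small or smaller, so this peak was among the weaker ones of the list by q.

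The paired ubiquitin ligases differed between themselves. Rnf43 (gene ID 207742, chr11:87663087-87735539, plus strand) had no peak in either list. Znrf3 (gene ID 407821, chr11:5276329-5444847, minus strand) had all of its peaks in one cluster, centred 4906 to 6027 bp before the gene end, spanning 1466 bp in HKO and 1556 bp in FF. In HKO the Znrf3 cluster was made of 3 peaks, at chr11:5282252-5282461 (log10 q -3.04, fold 15.3, percentile 68.4), chr11:5281534-5281893 (log10 q -6.43, fold 26.3, percentile 87.0) and chr11:5280996-5281474 (log10 q -7.14, fold 29.7, percentile 89.5). In FF it was made of 2, at chr11:5282162-5282491 (log10 q -3.83, fold 18.0, percentile 82.5) and chr11:5280936-5281983 (log10 q -10.0, fold 39.2, percentile 96.8). The 1048 bp FF peak covered both of the downstream HKO peaks, so the larger HKO number on Znrf3 came from the same stretch of RNA, and 100% of the 1049 bp under HKO peaks lay under FF peaks.

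Of the scaffold genes of the destruction complex, Apc (gene ID 11789, chr18:34220297-34322190, plus strand) had more and longer peaks in HKO. APC holds β-catenin in the complex, and its gene had 3 HKO peaks within 2546 bp and 2 FF peaks within 1348 bp. The Apc peak of smallest q lay at chr18:34317879-34318598 in HKO (log10 q -51.1, fold 30.0) and at chr18:34317939-34318538 in FF (log10 q -31.1, fold 8.53), and its centre, 3952 bp from the gene end, was the same base in both. Upstream of it, an HKO peak of 390 bp at chr18:34316951-34317340 (log10 q -10.5, fold 22.5) contained an FF peak of 120 bp at chr18:34317191-34317310 (log10 q -3.08, fold 3.37). The remaining Apc peak, at chr18:34316053-34316263, was in the HKO list alone, with fold 25.5 (log10 q -5.89), and ended 927 bp before the nearest FF peak. Apc was covered over 1321 bp in HKO and over 720 bp in FF, and every FF base lay under an HKO peak. The fold percentiles were 82.7 and 89.7 for the HKO peaks of the shared pairs, and 15.7 and 48.1 for their FF partners. Over all shared peaks beyond 500 bp of a gene start and 1000 bp of a gene end, the median percentile was 59.5 in HKO and 55.1 in FF.

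AXIN1 and AXIN2 are related scaffolds of the complex, and Axin2 is itself a target of the pathway that feeds back on it. Axin1 (gene ID 12005, chr17:26131217-26195811, plus strand) had 3 HKO peaks, each with an FF partner, and 4 FF peaks. The strongest in both lists lay in the upstream part of the gene, at chr17:26142809-26143497 in HKO (log10 q -21.3, fold 40.7, percentile 94.1) and chr17:26142929-26143378 in FF (log10 q -16.6, fold 22.7, percentile 89.0), centred on the same base. The HKO fold was the highest of these genes in its list. Further Axin1 pairs lay at chr17:26187877-26188116 in HKO (fold 7.54) and chr17:26187787-26188056 in FF (fold 7.93), and at chr17:26195003-26195153 in HKO (fold 2.63) and chr17:26194973-26195123 in FF (fold 2.47). In both of these pairs the folds and their ranks lay close, at percentiles 38.2 (HKO) and 45.8 (FF) for the upstream pair and 7.07 (HKO) and 7.61 (FF) for the pair at the gene end. The FF list alone held a peak at chr17:26138815-26138994, with fold 16.4 (log10 q -3.39), 3814 bp from the nearest HKO peak.

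Axin2 (gene ID 12006, chr11:108917828-108950783, plus strand) had the same layout in both lists, with a peak in the upstream part of the gene and another near its end, 1137 bp away in HKO and 1182 bp in FF. The distal Axin2 peaks, chr11:108949467-108949826 in HKO (log10 q -24.4, fold 17.8, percentile 74.9) and chr11:108949377-108949826 in FF (log10 q -24.7, fold 21.0, percentile 86.8), ended on the same base. The upstream Axin2 peaks, chr11:108923519-108923938 in HKO (log10 q -7.86, fold 17.8, percentile 74.9) and chr11:108923788-108924057 in FF (log10 q -4.15, fold 14.1, percentile 72.5), shared 151 bp. That is 28.0% of the bases they cover together, the smallest share among the 19 pairs, whose median was 65.3% beside 70.3% over all 11014 overlapping pairs of the lists.

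Tcf7l2 (gene ID 21416, chr19:55741797-55933659, plus strand), which encodes the DNA-binding partner of β-catenin, had 2 HKO peaks and 1 FF peak. The shared Tcf7l2 peak, at chr19:55932791-55933031 in HKO (log10 q -7.61, fold 3.13, percentile 11.1) and chr19:55932791-55933001 in FF (log10 q -6.60, fold 3.36, percentile 15.6), began on the same base and was centred 748 bp (HKO) and 763 bp (FF) before the annotated end. The other, at chr19:55741887-55742006, was in the HKO list alone, 149 bp from the gene start, with fold 12.7 (log10 q -2.36). It lies within the span of the long non-coding RNA gene Gm31734, whose strand the tables at hand do not give, so the peak is uncertain. No other peak of these genes lay in the span of a further annotated gene.

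**Figure D3:**
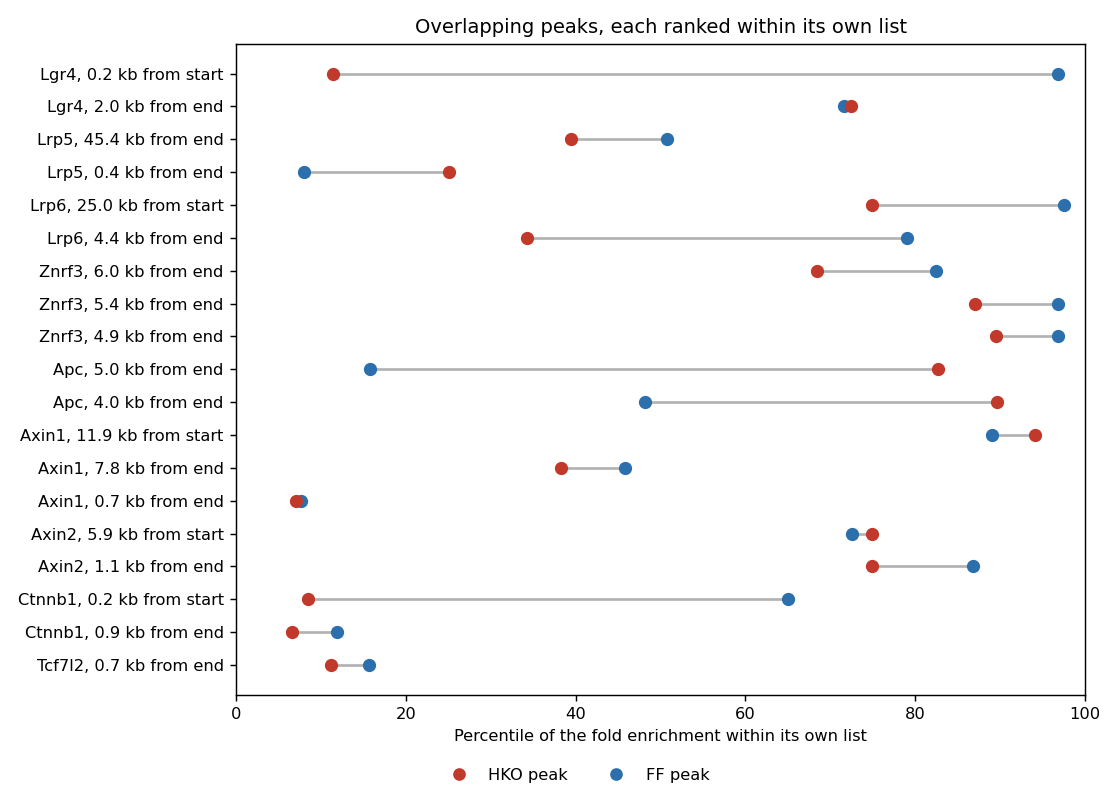
Rank of each fold within its own list (percentile, 0 to 100) for the 19 overlapping pairs, HKO and FF joined by a line, labelled by the distance of the HKO centre from the nearer end of the gene. The Lgr4 and Ctnnb1 start peaks stand far lower in HKO (11.4 and 8.40) than in FF (96.8 and 65.0), as does the Lrp6 peak 4354 bp from the gene end (34.2 in HKO, 79.0 in FF), and the Apc pairs far higher in HKO (82.7 and 89.7) than in FF (15.7 and 48.1).

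The 6 peaks without a partner were of unequal strength. Those of Apc (HKO, log10 q -5.89) and Ctnnb1 (FF, log10 q -9.36) passed a log10 q of -5, while those of Lrp6 and Tcf7l2 in HKO and of Axin1 and Lrp5 in FF, at -2.29, -2.36, -3.39 and -2.98, did not. The peaks on Apc and Ctnnb1 also lay close to a peak of the other list, at 927 bp and 118 bp, and the other 4 were at least 3814 bp away.

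The rest of the pathway was read from a list of 59 further genes grouped by role. Peaks were listed for 35 of them, where 40.8% of protein-coding genes had a peak, and for 28 (80.0% of the 35) in both lists, beside the 75.6% of all genes. Ligands and their secretion had 5 of 10 genes with a peak and receptors 5 of 10, near that share of 40.8%, and all of these had one in both lists. They included Wnt2, Wnt9b and Rspo3, the ligands made by liver endothelial cells, with 1, 1 and 2 HKO peaks and 1, 2 and 3 FF peaks. Lgr5, the relative of Lgr4 that marks pericentral hepatocytes, had no peak, a gene singled out after its value was seen. Among the inhibitors 4 of 12 had a peak, all in both lists, among them Nkd1 and Notum, feedback inhibitors, with 1 peak in each list.

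Peaks were listed for 11 of 14 transducers and destruction complex genes and for 10 of 13 nuclear partners, beside 40.8% of protein-coding genes. Of those with a peak, 8 of 11 and 6 of 10 had one in both lists, beside the 75.6% of all genes. With so few genes, nothing is read from these shares. Of the 11 transducers and destruction complex genes with a peak, Csnk1g3, a casein kinase (2 peaks, log10 q -17.1 and fold 5.23 at the smaller q), and Btrc, the receptor subunit of the ligase for phosphorylated β-catenin (log10 q -6.25, fold 5.09), were in the HKO list alone. Dvl3, a Dishevelled protein that relays the receptor signal, was in the FF list alone with 2 peaks (log10 q -4.51 and fold 8.62 at the smaller q). Of the 10 nuclear partners, Tcf7 (log10 q -3.37, fold 8.06), Tcf7l1 (log10 q -2.36, fold 12.7) and Tle4, a corepressor (log10 q -4.04, fold 3.39), were in the HKO list alone. Ctbp1, a corepressor as well, was in the FF list alone (log10 q -9.52, fold 2.42). Of the HKO-only genes, Csnk1g3 and Btrc passed a log10 q of -5, as Ctbp1 did on the FF side.

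The further genes with the most peaks were Fzd1, a Frizzled receptor, with 5 HKO and 5 FF peaks, Bcl9l, a coactivator of β-catenin, with 4 and 5, and, tied, the casein kinases Csnk1a1 with 4 and 3 and Csnk1e with 3 and 4. At its peak of smallest q, Fzd1 had a fold of 8.20 in HKO (log10 q -8.97) and 15.3 in FF (log10 q -24.0), at different places in the gene. Bcl9l had 14.9 in HKO (log10 q -39.2) and 22.6 in FF (log10 q -62.6). The corresponding values of Csnk1a1, which primes β-catenin for degradation, were 5.33 in HKO (log10 q -63.8) and 5.08 in FF (log10 q -71.0), and those of Csnk1e 20.4 in HKO (log10 q -9.31) and 22.7 in FF (log10 q -5.17).

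**Figure D4:**
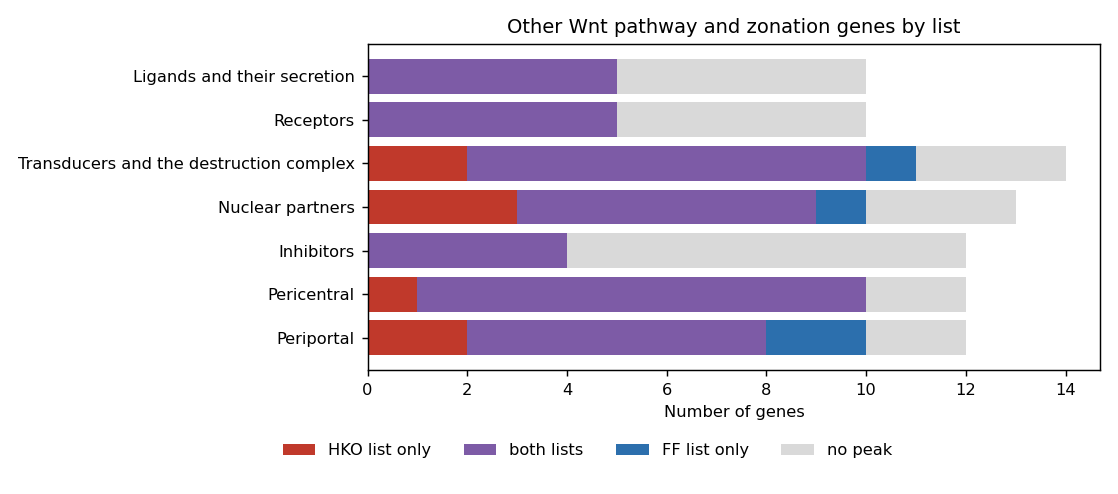
Number of genes in each role with peaks in the HKO list only, in both lists, in the FF list only, or with no peak, for 59 further Wnt pathway genes (upper 5 bars) and 24 zonation genes (lower 2 bars). Single-list genes appear among transducers, nuclear partners and zonation genes, and the grey stretch in every bar is genes with no peak.

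Zonation genes are those expressed mainly near the central vein or near the portal tract. Of 12 pericentral genes 10 had a peak, 9 in both lists, among them Glul, the glutamine synthetase gene confined to hepatocytes at the central vein (1 HKO and 1 FF peak), Tbx3, a transcription factor (2 and 2), and Slc1a2, a glutamate transporter (2 and 2). Rhbg and Gstm3 had none. Of 12 periportal genes 10 had a peak, 6 in both lists, while Cyp2f2 and Hsd17b13 had none. Hal, which encodes the enzyme that degrades histidine, had its only peak in the FF list, 402 bp from the gene start (log10 q -12.1, fold 2.83). Sds was likewise in the FF list alone, and Cps1, Ass1 and the pericentral Cyp2e1 in the HKO list alone. Over both zones, 20 of 24 genes had a peak, where 40.8% of protein-coding genes had one. Of these 20, 15 were in both lists, beside the 75.6% of all genes. With so few genes, no difference between the zones is read from these counts. Reads of Cyp1a2, Cyp2e1 and other members of gene families may be shared with related genes. This was not tested, so their peaks are uncertain.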

How the data were processed

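Per the series design text, the authors used exomePeak 2.16.0 to find peaks in the IP of a genotype relative to its input, keeping q-values up to 0.05. Tools listed in the submitters' processing notes, without roles, are BWA 0.7.12, fastp 0.19.11 and HOMER 4.9.1, with build GRCm38.p6. The sources disagree on antibody and library kit, which bears on strand and coverage. The deposited lists give a p-value per peak, its log10 and the log10 q (scores with no lower bound), and the fold, a ratio of IP over input, as the authors' values. Here peaks were matched by overlap of exon blocks (1 bp, same strand) and placed by the centre of their exonic bases within RefSeq gene spans (all 10 symbols matched; 3 peaks in each list had no position), with Python 3.11.15, pandas 2.3.3 and numpy 2.4.6. Coordinates count from base 1. The matching of peaks was checked on an altered copy of the FF list. Some peaks were shifted by a few bases and the others moved to a sequence absent from the list. This checks the code and not how lists called separately should match. Genes and lists were chosen with earlier results of these data known. All 10 genes were described in full. Of the pathway and zonation lists, genes in a single list, those without a peak where a list had 10 or fewer, and the 3 pathway genes with most peaks were named by rule, and other genes, markers included, after their values were seen. Alternatives were stricter q and fold, equal list lengths, a larger overlap and narrower windows.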

Additional observations from a re-analysis of the deposited data

How the results depend on the processing

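Of 39 values recomputed under the alternatives, 36 stayed within 1.5 times the reported count. At a log10 q of -5 or less in both lists, 1 HKO peak of the 10 Wnt genes stayed near a gene start (Ctnnb1), in place of 3. With a window of 500 bp in place of 1000 bp, 1 HKO and 1 FF peak stayed near a gene end, in place of 4 and 4, both on Lrp5. The 9 genes with peaks in both lists stayed 9 at that q, at a fold of 2 or more in both lists, and with both lists taken to 14057 peaks. Requiring an overlap of 50% of the shorter peak left 19 HKO and 18 FF peaks shared. No paired analysis was possible because there was 1 pool per genotype and no replicate number in the labels, and no replicate could be left out for the same reason. The depth of the libraries is not given in the lists, so how far it limits them is unknown.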
